A study of Mus musculus with 2 samples.

Results

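The 9 genes described here encode enzymes and a transporter with which the liver makes glucose and stores it as glycogen: G6pc, Pck1, Fbp1, Pcx, Slc37a4, Gys1, Gys2, Pygl and Gbe1. They were chosen by name from the 43346 mouse gene identifiers in the deposited tables, and all 9 were found there by gene identifier. The samples were livers of mouse embryos of the strain B6NCrl at 12.5 days, described as healthy, with males and females pooled. Livers of 120 embryos made up replicate 1 and livers of 88 embryos made up replicate 2. Each pool gave 1 total RNA library from 10 ng of RNA, with 37562365 expected counts in replicate 1 and 34729954 in replicate 2. Both libraries belong to 1 group, so the data give the levels of these genes at this age and the difference between the pools, with no view of how embryos within a pool varied. They allow no comparison with another age, tissue or treatment, and no test was made.

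Gluconeogenesis rebuilds glucose from lactate, amino acids and glycerol, largely by running glycolysis backwards, with separate enzymes for the steps that glycolysis cannot reverse. Pyruvate carboxylase (Pcx) and phosphoenolpyruvate carboxykinase (Pck1 in the cytosol, Pck2 in mitochondria) bypass pyruvate kinase, fructose bisphosphatase (Fbp1) bypasses phosphofructokinase, and glucose 6-phosphatase (G6pc), fed by the transporter encoded by Slc37a4, releases free glucose. Glycogen is built by glycogen synthase (Gys2 in liver, Gys1 in muscle and most other tissues) and the branching enzyme (Gbe1), and is taken apart by glycogen phosphorylase (Pygl in liver). In the mouse, the capacity of the liver to release glucose is known to arise around birth, when the placental supply ends.

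The tissue carried the markers of embryonic liver. The 6 hepatoblast markers all stood at 1 TPM (a level corrected for transcript length and scaled to a fixed total per library) or more in both libraries, with sums of 7678 and 7526 TPM in replicates 1 and 2 and with the lowest, Foxa2, at 4.37 and 4.69 TPM. The 4 erythroid markers summed to 2087 and 2128 TPM, and all 3 macrophage, 3 endothelial and 3 mesenchymal markers also reached 1 TPM. In such a mixed tissue, fewer cells of a type and less RNA per cell cannot be told apart. Of the organs that also make glucose, the kidney markers Slc34a1, Umod and Slc22a6 had no reads in either library. These 3 genes mark differentiated kidney, so their lack of reads cannot show whether embryonic kidney was present. The gut markers summed to 5.90 and 6.20 TPM, nearly all of it Fabp2 at 5.17 and 5.39 TPM, while Cdx2 had 0.03 TPM in replicate 1 and 0 in replicate 2.

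The DNA ahead of the gene starts is shown for the 3 members that were at or near 0 and for both annotated starts of Pcx, because the 2 Pcx transcripts reported below begin at different promoters. Each line gives the 250 bases before a RefSeq start on build GRCm38.p6, read 5′ to 3′ on the strand of the gene. The RefSeq starts of G6pc and Pck1 lie downstream of the gene starts in GENCODE given below, so the ends of these windows lie inside the GENCODE genes. Capitals mark matches to 5 motifs, searched on both strands, and adjoining or overlapping matches run together. The TATA box, where the general transcription machinery binds, was searched as TATAAA. A variant of it known from the Pck1 promoter was searched as TATTTAA. The core of the cAMP response element, bound by factors such as CREB, was searched as CGTCA. The half-site of the hepatocyte factor HNF1 was searched as GTTAAT. The CCAAT box, bound by the factor NF-Y, was searched by the letters of its name.
G6pc (chr11:101367466-101367715, plus strand): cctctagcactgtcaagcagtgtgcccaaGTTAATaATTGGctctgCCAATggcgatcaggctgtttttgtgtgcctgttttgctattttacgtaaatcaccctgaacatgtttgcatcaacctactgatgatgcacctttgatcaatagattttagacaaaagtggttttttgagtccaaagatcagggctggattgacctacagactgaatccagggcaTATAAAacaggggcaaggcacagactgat
Pck1 (chr2:173152823-173153072, plus strand): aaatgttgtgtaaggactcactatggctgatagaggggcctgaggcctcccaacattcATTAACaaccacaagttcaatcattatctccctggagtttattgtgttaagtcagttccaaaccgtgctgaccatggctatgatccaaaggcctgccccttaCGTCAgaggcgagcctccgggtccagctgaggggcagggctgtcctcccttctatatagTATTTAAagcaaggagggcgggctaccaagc
Fbp1 (chr13:62888283-62888532, minus strand): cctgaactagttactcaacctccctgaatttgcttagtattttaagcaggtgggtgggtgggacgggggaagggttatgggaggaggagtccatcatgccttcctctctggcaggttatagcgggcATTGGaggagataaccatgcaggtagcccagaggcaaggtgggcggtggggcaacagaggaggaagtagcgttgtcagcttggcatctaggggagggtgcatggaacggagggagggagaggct
Pcx distal start (chr19:4510222-4510471, plus strand): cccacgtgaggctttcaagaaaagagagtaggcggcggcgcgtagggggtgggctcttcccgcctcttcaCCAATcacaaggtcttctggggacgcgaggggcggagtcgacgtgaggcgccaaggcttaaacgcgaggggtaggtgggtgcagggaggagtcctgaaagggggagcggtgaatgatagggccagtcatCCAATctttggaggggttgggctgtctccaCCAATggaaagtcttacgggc
Pcx proximal start (chr19:4594069-4594318, plus strand): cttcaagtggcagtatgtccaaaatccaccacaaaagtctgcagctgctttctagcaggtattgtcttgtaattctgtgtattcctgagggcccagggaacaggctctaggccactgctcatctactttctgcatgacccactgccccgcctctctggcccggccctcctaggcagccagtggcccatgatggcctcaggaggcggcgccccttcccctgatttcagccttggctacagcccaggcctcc

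These motifs were chosen after the windows of the members had been read, and GTTAAT is a shortened form of a longer motif first picked from the G6pc window, so their presence in G6pc and Pck1 supports nothing and is shown only to orient a reader in the sequence. The G6pc window held TATAAA starting 29 bases before the start, GTTAAT starting 221 bases before it, and CCAAT once on each strand. The Pck1 window held TATTTAA starting 31 bases, CGTCA starting 90 bases and GTTAAT, on the minus strand, starting 192 bases before the start. Fbp1 held a single CCAAT on the minus strand. The distal Pcx window held CCAAT at 3 places and none of the others, and the proximal window held none of the 5 motifs. Over all 32851 windows of this kind in the RefSeq table, 12.4% held TATAAA, 4.18% TATTTAA, 17.8% CGTCA, 6.43% GTTAAT and 33.8% CCAAT. A match is a stretch of letters and not a measured binding site. The table gave windows for 8 of the 9 members, 11 windows in all, and Gys2 was the member without one.

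The windows also differed in their content of CpG, the base pair step that mammalian genomes keep mainly at broadly used promoters. G6pc had 2 CpG in 250 bases, and Pck1 and Fbp1 had 5 each. The distal Pcx window had 16, Pygl 20, Gys1 11 and Gbe1 9, whereas the proximal Pcx window had 4. The 3 windows of Slc37a4, of which the first 2 overlap, had 7, 14 and 2. For comparison, windows of protein-coding genes at 1 TPM or more in both libraries had a median of 16 (25th to 75th percentile 8 to 23), and windows of protein-coding genes under 0.1 TPM in both had a median of 2 (1 to 5). The 3 members below 1 TPM thus fell within the middle range of the latter, and among the 6 at 1 TPM or more each of the 5 with a window had at least 1 window within the middle range of the former. Slc37a4 met this only through its middle window, with 14. Its single quantified model starts at 44398176 in GENCODE, inside the last window, which had 2. That window lies in the middle range of genes under 0.1 TPM. This is a description of 8 genes, with no test.

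**Figure D1:**
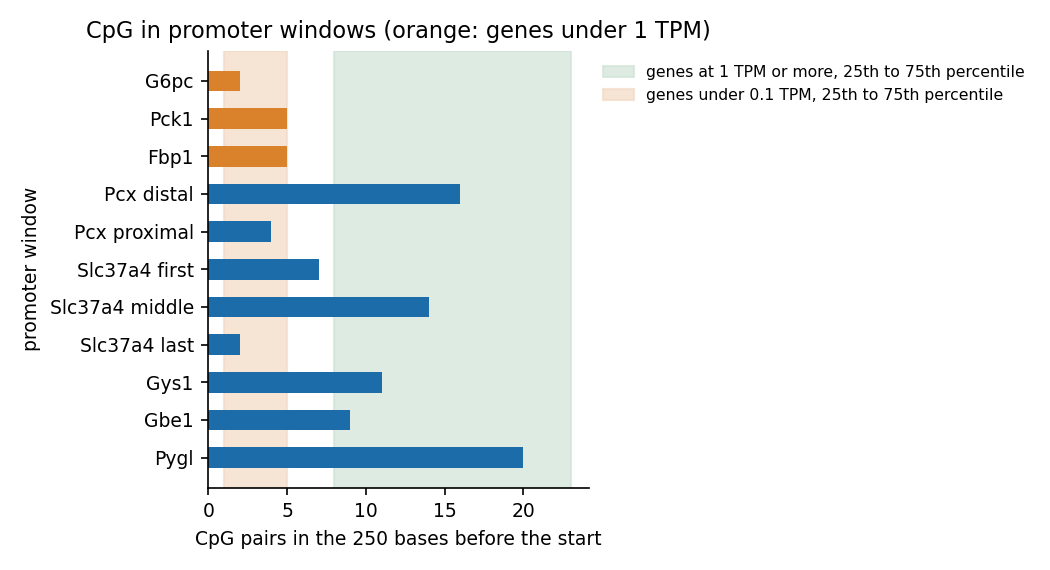
CpG counted in the 250 bases before each RefSeq start (horizontal axis) for the 11 promoter windows of 8 members (vertical axis), with shaded bands for the 25th to 75th percentile of windows of protein-coding genes at 1 TPM or more (8 to 23) and under 0.1 TPM (1 to 5). The orange bars of G6pc, Pck1 and Fbp1 end at 2, 5 and 5, and the longest bar, Pygl, ends at 20.

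Of the 9 members, 6 were detected, meaning at 1 TPM or more in both libraries, and 3 were not. The same rule was met by 29.6% of all 43346 gene identifiers and by 54.5% of the 21474 protein-coding genes. The glycogen genes were all on the detected side, 4 of 4, with a median of 16.8 TPM, while among the 5 genes of glucose production 2 were detected and the median was 0.115 TPM. The median over the 9 members was 8.18 TPM, against 2.02 TPM over all protein-coding genes and 12.7 TPM over all detected genes.

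The first step of gluconeogenesis was well represented. Pcx (ENSMUSG00000024892.11, chromosome 19, 4510472 to 4621752, plus strand), the mitochondrial enzyme that turns pyruvate into oxaloacetate, had 28.4 and 29.5 TPM in replicates 1 and 2, from 3620 and 3474 reads. Its mean of 28.9 ± 0.742 TPM (SD, n = 2) exceeded that of 82.6% of protein-coding genes. Pyruvate carboxylase also refills the citric acid cycle in cells that make no glucose.

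At the next step the gene of the mitochondrial enzyme stood far above that of the cytosolic one. Pck1 (ENSMUSG00000027513.7, chromosome 2, 173153048 to 173159273, plus strand) had 0.06 TPM from 5 reads in replicate 1 and 0.17 TPM from 13 reads in replicate 2. Both values lay above the level of 3 reads in their library, 0.0372 and 0.0402 TPM, and far below 1 TPM. The mitochondrial isozyme gene Pck2 had 19.6 and 20.9 TPM from 2041 and 2012 reads. Pck2 exceeded Pck1 on the TPM scale by 317-fold in replicate 1 (95% interval 136 to 977) and by 120-fold in replicate 2 (70.1 to 226). The wide intervals come from the few Pck1 reads, and the intervals of the libraries overlap. Against Pcx, the Pck2 level was 0.691 (0.655 to 0.730) and 0.710 (0.672 to 0.7503), so these 2 mitochondrial steps stood at levels of the same order in both pools.

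For the bypass of phosphofructokinase, reads were at or under the limit of what the depth can show. Fbp1 (ENSMUSG00000069805.6, chromosome 13, 62864753 to 62888282, minus strand) had 1 read in replicate 1 and 2 reads in replicate 2, or 0.02 and 0.05 TPM. Its isozyme Fbp2, the form known from muscle, had no reads in replicate 1 and 2 reads in replicate 2, where it stood at 0.06 TPM. Neither gene of this enzyme pair passed 3 reads in either library.

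The last step, release of free glucose, showed a split between enzyme and transporter. G6pc (ENSMUSG00000078650.2, chromosome 11, 101367561 to 101377903, plus strand), the catalytic subunit of liver and kidney, had no reads in either library, which by a count of 3 allows up to 0.0412 and 0.0445 TPM. Slc37a4 (ENSMUSG00000032114.8, chromosome 9, 44396852 to 44402968, plus strand), which carries glucose 6-phosphate into the endoplasmic reticulum, had 14.2 and 14.6 TPM from 884 and 841 reads. Slc37a4 was thus at least 344-fold higher than G6pc in replicate 1 and at least 327-fold higher in replicate 2, taking 3 reads per library as the limit for G6pc. The paralog G6pc3, a phosphatase found in most tissues, had 17.2 and 15.6 TPM and was at least 417-fold and at least 352-fold higher than G6pc. G6pc2, the islet form, had 0 and 1 read.

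**Figure D2:**
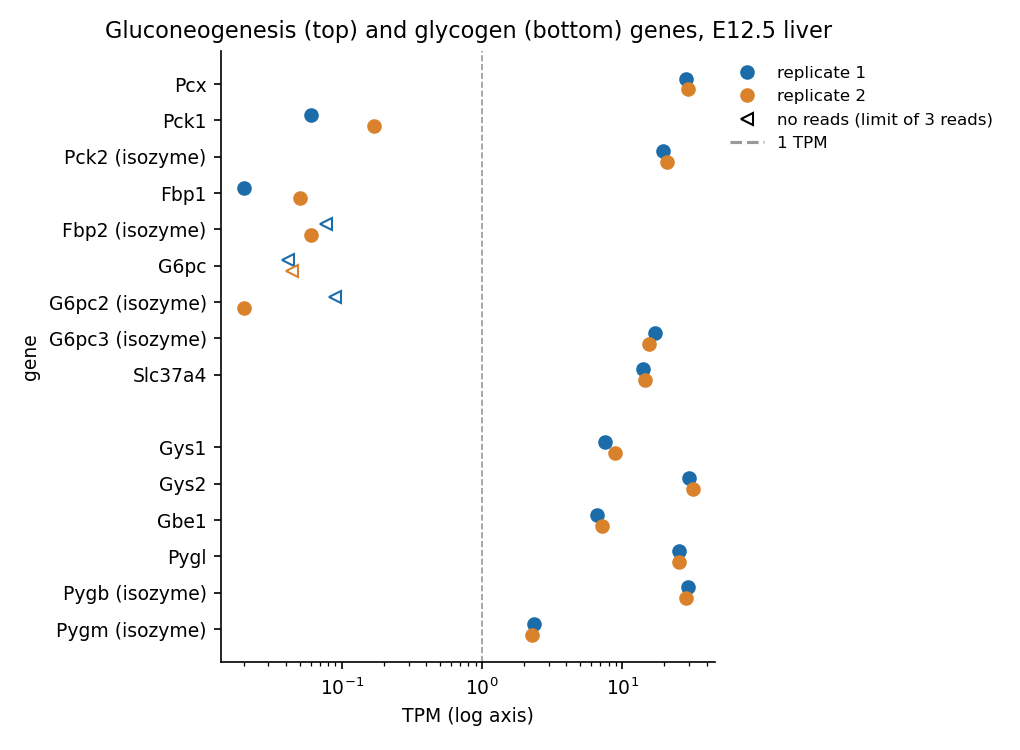
TPM on a log axis (horizontal) of the 9 members and 6 isozymes (vertical), with 1 point per library, open triangles at the limit of 3 reads where a library had no reads, and a dashed line at 1 TPM. Points for Pck1, Fbp1, Fbp2, G6pc and G6pc2 lie left of the line, and those of the 6 detected members lie between 6.62 and 32.0 TPM.

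Among the glycogen genes, the liver form of glycogen synthase had the highest deposited gene TPM, but with 1 length per gene it stood at 21.1 TPM, below Pygl at 24.9 TPM. Gys2 (ENSMUSG00000030244.7, chromosome 6, 142422613 to 142473109, minus strand) had 30.0 and 32.0 TPM in replicates 1 and 2, from 1653 and 1619 reads, and its mean of 31.0 TPM exceeded that of 83.5% of protein-coding genes. Gys1 (ENSMUSG00000003865.10, chromosome 7, 45434844 to 45456619, plus strand), the form of muscle and other tissues, had 7.48 and 8.87 TPM from 795 and 811 reads. The ratio of Gys2 to Gys1 in TPM was 4.01 (95% interval 3.68 to 4.37) in replicate 1 and 3.603 (3.31 to 3.93) in replicate 2, so Gys2 made up 80.0% and 78.3% of the synthase TPM. With the full-length coding transcript of each gene alone the ratio was 2.81 ± 0.0501 (SD, n = 2). The Gys2 models are described below.

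The branching enzyme was the lowest detected member. Gbe1 (ENSMUSG00000022707.12, chromosome 16, 70313949 to 70569716, plus strand), which sets the branch points that make glycogen soluble, had 6.62 and 7.21 TPM from 486 and 484 reads. In deposited gene TPM, Gys2 exceeded it by 4.53-fold (4.09 to 5.02) and 4.43-fold (4.00 to 4.92). With 1 length per gene, Gys2 stood at 21.1 TPM and Gbe1 at 5.83 TPM, a smaller ratio. Gbe1 and Gys1 stood next to each other in the order of levels, with means of 6.92 ± 0.417 and 8.18 ± 0.983 TPM (SD, n = 2).

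Phosphorylase was present in liver and brain forms at like levels. Pygl (ENSMUSG00000021069.12, chromosome 12, 70190811 to 70231488, minus strand), which frees glucose 1-phosphate from glycogen in liver, had 25.5 and 25.4 TPM from 2171 and 1946 reads. Pygb, the brain form, had 29.6 and 28.6 TPM and was above Pygl in both libraries. The ratio of Pygl to Pygb was 0.859 (0.814 to 0.906) in replicate 1 and 0.889 (0.840 to 0.941) in replicate 2, both intervals below 1. Pygm, the muscle form, had 2.34 and 2.29 TPM, and Pygl exceeded it by 10.9-fold (8.93 to 13.3) and 11.1-fold (9.03 to 13.7). The full-length Pygm transcript had 0.99 and 0.91 TPM, and the ratio of Pygl to Pygm was 26.2 with full-length coding transcripts alone.

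In descending order of mean TPM the members were Gys2, Pcx, Pygl, Slc37a4, Gys1, Gbe1, Pck1, Fbp1 and G6pc. The means of Gys2 and Pcx, 31.0 ± 1.39 and 28.9 ± 0.742 TPM, differed by about the spread of their pools. Gys1 and Gbe1 were also close, as were Pck1 (0.115 ± 0.0778 TPM) and Fbp1 (0.035 ± 0.0212 TPM), which rest on few reads. The gap between Gbe1 and Pck1 separated the 6 detected members from the other 3 in both libraries.

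The transcript tables show how these gene levels were built. Gys2 had 2 models. The full-length model (2657 nt, 17 exons) held 1583 of the reads in replicate 1 and 1549 in replicate 2. The second model is a fragment of 314 nt with 2 exons at the 3′ end of the gene (chromosome 6, 142422617 to 142422831 and 142423521 to 142423619), and the annotation marks its 5′ end as not found. All 314 of its bases are also in the full-length model, whose matching exon runs from 142423394 to 142423633, so the models differ there in a splice junction. The 314-nt model held 69.9 reads in each library, 4.23% and 4.32% of the reads of the gene, but 34.4% and 34.9% of its TPM, since TPM divides reads by the short length. In the authors' deposited table the TPM of the 314-nt Gys2 model was bounded by 7.53 and 13.0 in replicate 1 and by 8.29 and 14.2 in replicate 2. The full-length model alone had 19.7 and 20.8 TPM. Set over the full-length model alone, all reads of the gene gave 21.1 TPM in place of 31.0 TPM, which would place Gys2 below Pcx and Pygl in the order above.

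Pcx had 2 models with different first exons, both protein-coding. The distal model (4148 nt) starts at 4510472, directly after the distal window printed above, and the proximal model (4125 nt) at 4594346, shortly downstream of the proximal window. In the rat gene, the proximal promoter is known for its use in liver, kidney and fat and the distal one for its use in pancreatic islets. The distal model held 97.6% of Pcx TPM in replicate 1 and 90.4% in replicate 2, and its level was 27.7 and 26.6 TPM. The proximal model held 2.36% and 9.57%, or 0.67 and 2.82 TPM. The authors' deposited table bounds the TPM of the proximal Pcx model by 0.0264 and 2.83 in replicate 1 and by 0.666 and 5.13 in replicate 2. These ranges overlap, so the models left the difference between the pools in the minor form unresolved, while the distal form was the larger in both. The models share 18 exons exactly and differ in their first exons and in the end of the last, so most reads of Pcx could belong to either.

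Gbe1 had 7 models, of which 6 held reads. The coding models of 2846 and 2984 nt held 35.6% and 32.3% of its TPM in replicate 1 and 35.5% and 26.1% in replicate 2. Models annotated as retained introns made up much of the remainder. That of 658 nt held 14.5% and 16.9% of TPM from 3.49% and 4.10% of reads, and that of 1026 nt held 10.7% and 10.1% of TPM from 4.29% and 4.08% of reads. The 2846-nt coding model was the leading one in both pools without holding most of the TPM in either.

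The other members had 1 leading model each. The full-length Gys1 model held 92.4% and 84.5% of Gys1 TPM and 98.0% and 96.3% of its reads, and the leading Pygl model held 99.1% and 96.1% of Pygl TPM. Slc37a4 had a single model in the annotation used by the authors, although RefSeq lists 3 starts. All reads of Pck1 and Fbp1 were assigned to 1 model per gene.

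**Figure D3:**
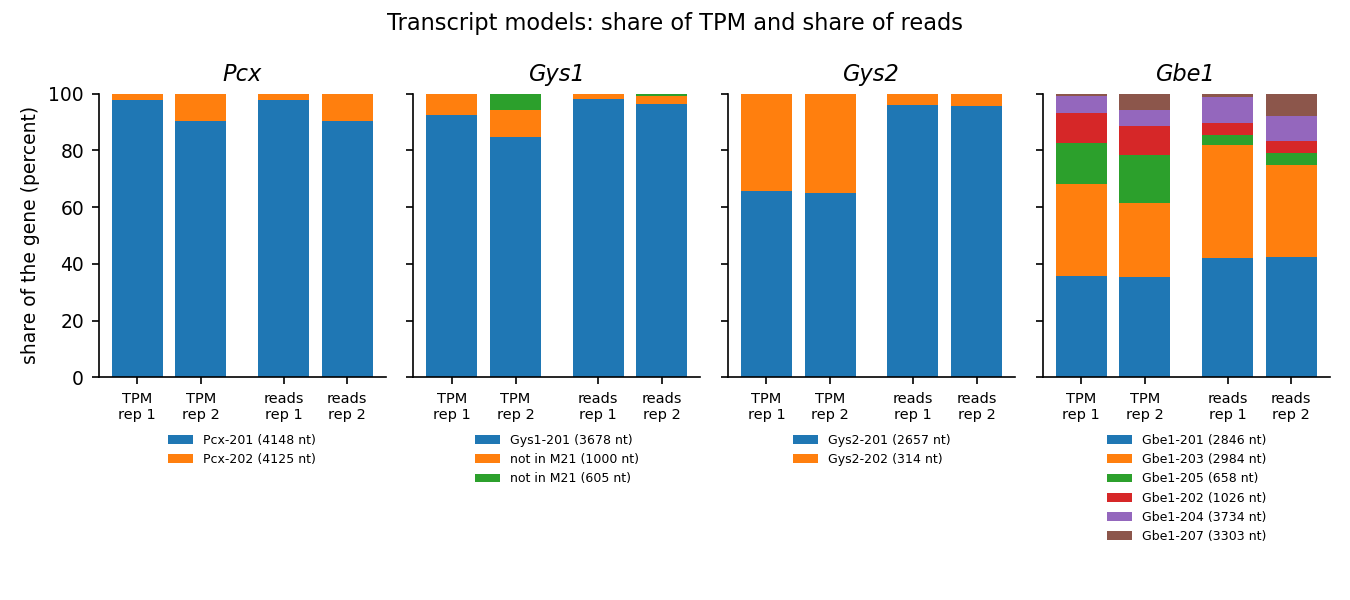
Share in percent (vertical axis) of each transcript model of Pcx, Gys1, Gys2 and Gbe1 in the TPM and in the reads of the gene, by library (horizontal axis), with model lengths in the key. The 314-nt Gys2 model takes 34.4% and 34.9% of TPM but 4.23% and 4.32% of reads, whereas the Pcx shares are nearly alike on both scales.

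The pools gave similar levels of the detected members. None of the 6 differed by 1.2-fold or more (ratios computed after adding 0.1 TPM), against 12.1% of the 12841 detected genes, and none was 1.2-fold or more lower in replicate 1, against 6.42%. With nothing added, the ratio of replicate 1 to replicate 2 was 0.964 for Pcx, 0.973 for Slc37a4, 0.938 for Gys2, 0.918 for Gbe1 and 1.00 for Pygl, each with a counting interval that included 1. Gys1 had a ratio of 0.843 (0.764 to 0.932), the 1 member whose interval left out 1 on the deposited TPM scale, as did those of 29.8% of detected genes. Its 2 minor models, neither of them in annotation M21, had 0.57 and 0.85 TPM (1000 nt) and 0 and 0.52 TPM (605 nt), and with 1 length for all reads of the gene the ratio was 0.907 (0.822 to 1.002), which no longer left out 1. The interval also included 1 with TMM size factors (0.823 to 1.003), DESeq2 size factors (0.822 to 1.003) and spike-in centring (0.828 to 1.01), so the difference in Gys1 does not hold beyond counting error under these scalings. Skeletal muscle markers were lower in the same pool: 1 of 3 reached 1 TPM in both, and their sums were 2.79 and 8.66 TPM, with Acta1 at 1.74 and 4.25, Myog at 0.93 and 4.25 and Ckm at 0.12 and 0.16 TPM. The muscle phosphorylase gene Pygm, at 2.34 and 2.29 TPM, was not lower there. The part of muscle RNA in the Gys1 value was not tested. Each pool was 1 library, so these ratios had no replicate check.

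Lower values in replicate 1 were seen for 5 of the 6 members, against 47.1% of detected genes. That direction depends on the scaling: centred on the spike-in RNAs, 2 were lower and 4 higher in replicate 1, against 18.9% of detected genes lower. With that scaling, the median of all detected genes moved to 0.12 on the log2 scale. The near-silent genes Pck1 and Fbp1 both had fewer reads in replicate 1, 5 against 13 and 1 against 2, with ratios, with nothing added, of 0.353 (0.0985 to 1.05) and 0.40 (0.00678 to 7.68) whose intervals included 1. After adding 0.1 TPM, the ratios of these low genes were 0.593 and 0.80.

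**Figure D4:**
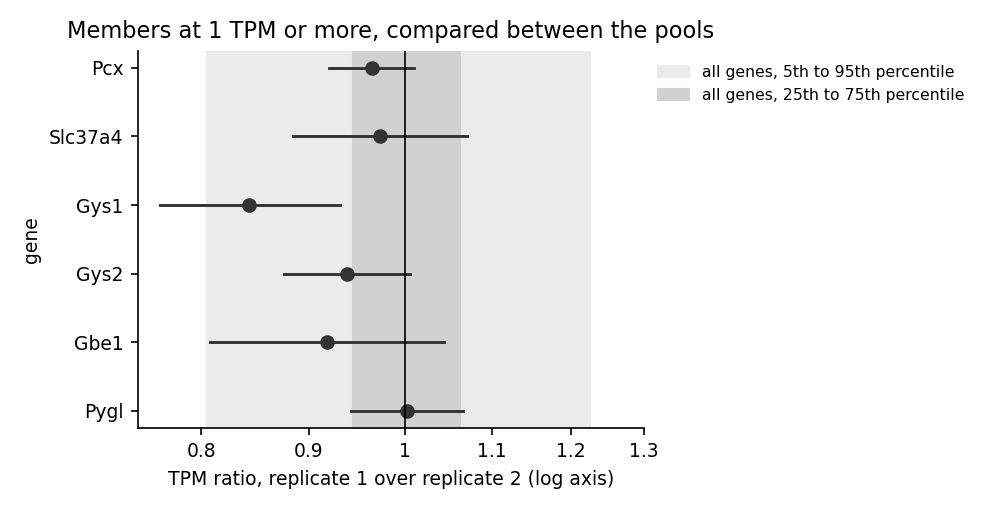
Ratio of TPM, replicate 1 over replicate 2, on a log axis (horizontal) for the 6 detected members (vertical), with 95% intervals for counting error, over grey bands for the 25th to 75th and 5th to 95th percentile of all 12841 detected genes. Gys1 at 0.843, Gbe1 at 0.918 and Gys2 at 0.938 lie below the inner band of 0.945 to 1.06, the other 3 lie inside it, and all 6 lie inside the outer band of 0.805 to 1.23.

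Gys1 shares exon bases with a neighbour. The gene Ruvbl2 on the opposite strand overlaps the 5′ end of Gys1, with 310 exon bases in common in annotation M21, and had 115 and 108 TPM. The labels give no strandedness, so whether Ruvbl2 reads were counted to Gys1 was not tested. Pcx, Slc37a4 and Pygl each overlap 1 other gene without sharing exon bases, and the other members overlap none.

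Of 9 other genes of glycogen metabolism, 7 were detected, against 54.5% of protein-coding genes, and the median was 23.4 TPM. Pgm1 and Pgm2, phosphoglucomutases that link glucose 1-phosphate and glucose 6-phosphate, had 56.3 and 52.2 TPM, and 27.9 and 29.6 TPM. Ugp2, which makes the UDP-glucose used by glycogen synthase, had 32.9 and 27.5 TPM, and Gyg, the glycogenin that primes the polymer, had 23.8 and 23.0 TPM. Both genes below 1 TPM, Epm2a and Nhlrc1, encode the laforin and malin proteins of glycogen quality control. The lysosomal glucosidase gene Gaa was also detected.

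Of 14 genes whose products switch these enzymes on and off, 8 reached 1 TPM, a share near the 54.5% of all protein-coding genes, and the list median was 1.69 TPM, below the 2.02 TPM of all protein-coding genes. Phosphorylase kinase, which activates phosphorylase, was led by its catalytic gene Phkg2 at 19.2 and 21.2 TPM and its beta subunit gene Phkb at 16.9 and 16.9 TPM. The kinase genes Gsk3b and Gsk3a, whose products inhibit glycogen synthase, had 15.2 and 15.7 TPM, and 11.2 and 12.2 TPM. The protein phosphatase subunit genes of the Ppp1r3 family, which bring the phosphatase to glycogen, included 5 of the 6 undetected genes, and Phkg1, the muscle kinase gene, was the sixth. The means of these 5 ran from 0.005 TPM (Ppp1r3a) to 0.855 TPM (Ppp1r3f), the latter just under the limit. Ppp1r3b, at 2.06 and 2.06 TPM, and Ppp1r3d, at 1.62 and 1.58 TPM, were detected. These family members were named after their values were seen.

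The 10 transcription factors and coactivators known to act on gluconeogenic genes all reached 1 TPM, as did 54.5% of protein-coding genes, and their median was 11.5 TPM. Cebpb had 19.0 and 20.3 TPM, the glucocorticoid receptor gene Nr3c1 19.4 and 19.5 TPM, Creb1 18.2 and 16.8 TPM and Foxo3 15.6 and 14.7 TPM. The hepatocyte factor gene Hnf4a had 13.4 and 13.1 TPM. The lowest of the list, singled out after its value was seen, was the coactivator gene Ppargc1a at 2.00 and 2.01 TPM. Sirt1, also named after its value was seen, had 5.26 and 6.49 TPM. It was the 1 gene of the 10 that differed by 1.2-fold or more between the pools, a share near the 12.1% of all detected genes. RNA of these regulators was present in the same libraries in which G6pc had no reads and Pck1 had 5 and 13. Which cells of the mixed tissue carried that RNA cannot be told, and a link to G6pc and Pck1 was not tested.

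Of the 9 receptor and glucose handling genes, 7 reached 1 TPM, against the same 54.5%, and the list median was 6.53 TPM. The insulin receptor gene Insr had 16.4 and 15.1 TPM and the glucose transporter gene Slc2a2 had 12.8 and 13.9 TPM. The glucagon receptor gene Gcgr had 8.32 and 7.38 TPM. Tat, a hormone-induced enzyme of tyrosine breakdown, was among those below 1 TPM. Among the 9 isozymes and paralogs of the members, 7 were detected, against 54.5% of protein-coding genes. Their median was 2.32 TPM, near the 2.02 TPM of all protein-coding genes.

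**Figure D5:**
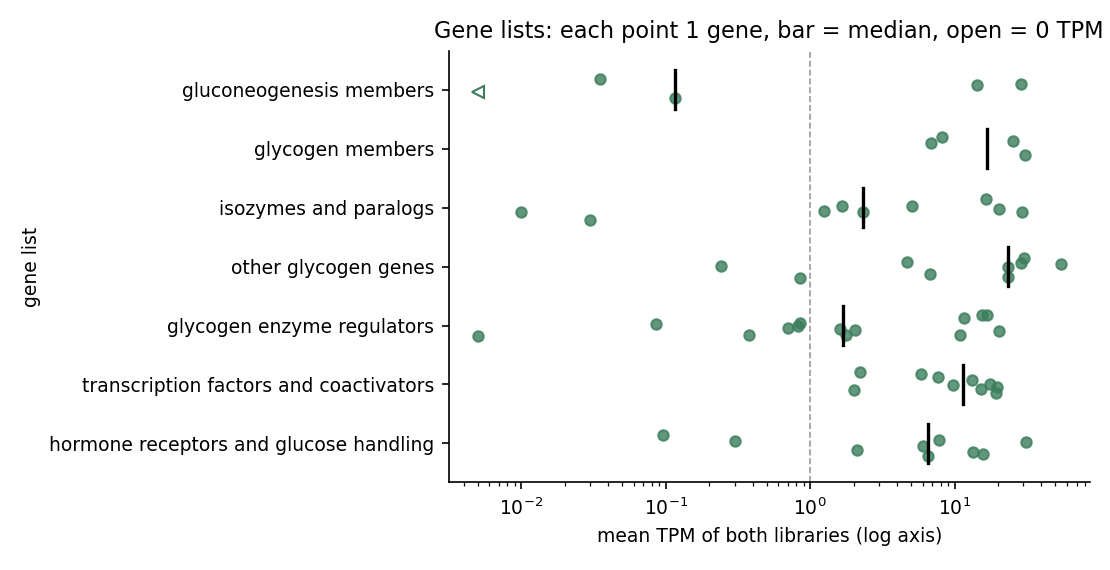
Mean TPM of both libraries on a log axis (horizontal) for each gene of the 7 lists (vertical), with the median of each list as a black bar, an open triangle for G6pc at 0 and a dashed line at 1 TPM. The glycogen members have a median of 16.8 TPM with every gene right of the line, while the gluconeogenesis members have a median of 0.115 TPM with 3 of 5 left of it.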

How the data were processed

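Gene and transcript tables of both libraries were used, made by the authors on mm10 with GENCODE M4, per the labels and deposited file notes. Programs for alignment and quantification were not given in the sources used here. Deposited expected counts are estimated reads, not normalized. Deposited TPM is scaled to a fixed total over all entries, spike-ins and tRNA entries included, and deposited FPKM is per length and depth. Each transcript's percent of gene TPM (IsoPct) and the bounds of TPM, whose level is not stated, are also columns made by the authors.

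Symbols were matched by unversioned identifier for 42462 of 43346 mouse genes. Gene coordinates, classes and transcript types came from GENCODE M21, also on mm10, 1-based, and promoter windows from RefSeq on GRCm38.p6. Intervals are exact 95% Clopper-Pearson intervals from counts rounded to whole reads. Reads copied by PCR and not tagged by molecule are not independent, so intervals and the limit of 3 reads cover counting error only. For 1 kb of effective length that limit was 0.0953 TPM in replicate 1 and 0.103 TPM in replicate 2. Size factors came from edgeR 4.0.16 and DESeq2 1.42.0 in R 4.3.3, and all else from Python 3.11.15 with pandas 2.3.3 and scipy 1.17.1. The ratio and interval calculation was tested on simulated data. With 1 group, no p-value was computed.

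The members and lists were chosen with earlier results of these data known, and the promoter motifs after the members' windows had been read. Named were all members, the 4 highest genes of each list, the direct isozymes and transcripts at 10% or more of a gene's TPM. Some genes of the lists are counted but not reported here by name. No search for genes of like pattern was made, since 2 libraries of 1 condition give no pattern.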

Additional observations from a re-analysis of the deposited data

How the results depend on the processing

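The count of detected members was 6 at 0.5 TPM, at 5 TPM, at 10 reads and without either replicate. Of all gene identifiers, 32.7% passed at 0.5 TPM, 20.9% at 5 TPM and 36.1% at 10 reads. Without replicate 1 the share was 30.5%, and without replicate 2 it was 30.4%. With no filter on low values, 2 members (Pck1 and Fbp1) passed 1.2-fold between the pools, against 29.1% of genes with reads in both, and with a limit of 1.1-fold 1 member did, Gys1, against 31.5%. At 5 TPM or more, 3 of the 9 isozymes and paralogs and 5 of the 14 regulators were detected, against 20.9% of all gene identifiers. The share of protein-coding genes alone at this limit was not counted. Slc37a3, with a mean of 5.105 TPM, exceeded 59.2% of protein-coding genes, so 20.9% is too low a background for these lists. With spike-in centring the interval of the Pygl ratio between the pools, 1.09 (1.02 to 1.16), left out 1, and with FPKM that of Gys1 still did (0.764 to 0.931). Without spike-ins, tRNA entries and globin genes in the total, the median of the members was 11.9 TPM. Reads over the longest model gave ratios of 2.82 for Gys2 to Gys1, 0.809 for Pygl to Pygb and 19.6 for Pygl to Pygm. Full-length coding transcripts alone, an alternative chosen after seeing the data, gave 2.81 and 26.2 for the first and last of these. By share of reads, the leading transcript held 97.1% of Gys1, 95.7% of Gys2 and 42.2% of Gbe1. Among transcripts annotated as coding in M21 it held 100% of Gys1 and Pygl and 52.2% of Gbe1. For Gys1 that share was fixed in advance, since only 1 of its 6 models is in M21. Shares of reads leave out the division by length, and the causes of the other moves were not tested. Depth limits G6pc, Fbp1 and Pck1, whose values rest on 0 to 13 reads.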

Other observations

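The pattern seen in Gys2, a short transcript model with few reads and a large part of the TPM, was counted over all genes. Of 8937 detected genes with several models, 139 (1.56%) had a model under 500 nt that held 25% or more of the TPM and under 10% of the reads in both libraries. Gys2 was the 1 member among them. For these genes the deposited gene TPM exceeds what the reads give over a full-length model.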
